A study of Mus musculus with 3 samples.

Results

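The microglia of this series were a small cluster of nuclei, number 20 of the 22 clusters in the deposited annotation, chosen as the cluster with the highest summed level of Cx3cr1, Csf1r and Tmem119. It held 146 of 31703 retained nuclei. Nuclei came from the olfactory bulbs (OB) of 3 adult male C57Bl/6 mice, 7 weeks old, with 1 library per mouse. All mice had received retroAAV-CAG-H2B-GFP, a virus that axon terminals take up and that labels nuclei with a green fluorescent histone, at 2 cortical targets of the OB, the AON (anterior olfactory nucleus) and PCx (piriform cortex), and GFP-positive, DRAQ5-positive nuclei were sorted (DRAQ5 is a DNA dye) before droplet sequencing with the 10x 3′ v3 kit. The sort was meant to enrich projection neurons, so the share of microglia is that of a gated suspension and not of the tissue. CAG is a general promoter that does not restrict the label to neurons. How microglial nuclei came through the sort was not tested. There was 1 group and no untreated mouse, and cells were compared over the 3 mice.

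Microglia are the resident macrophages of brain tissue. They depend on the receptor encoded by Csf1r for survival, sense the neuronal chemokine fractalkine through Cx3cr1, follow nucleotides through P2ry12, and supply C1q, the initiating component of the classical complement cascade. In the OB, where adult-born neurons are integrated or lost throughout life, microglia are known for clearing dying cells and pruning contacts. Macrophages of a second kind, here called border macrophages, line vessels and meninges. They share Csf1r and C1q with microglia and are told apart by Mrc1, Cd163, Lyve1 or F13a1.

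The 3 genes used for the choice reached a summed 1480 CPM in cluster 20 over all mice, where CPM is the number of unique molecular identifiers (UMIs, each 1 captured RNA molecule) of a gene scaled to 1000000 UMIs of the library. The next cluster, number 18, was at 40.8, and the other 21 clusters ranged from 10.8 to 40.8. By mouse the sum in cluster 20 was 3412, 1404 and 1101 CPM in mice 1, 2 and 3. Each gene alone, and each mouse alone, picked cluster 20 as well. These values chose the cluster and are therefore a description. Since the clusters were made from the expression of these same nuclei, no test of cluster 20 against the rest was made for any gene.

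**Figure D1:**
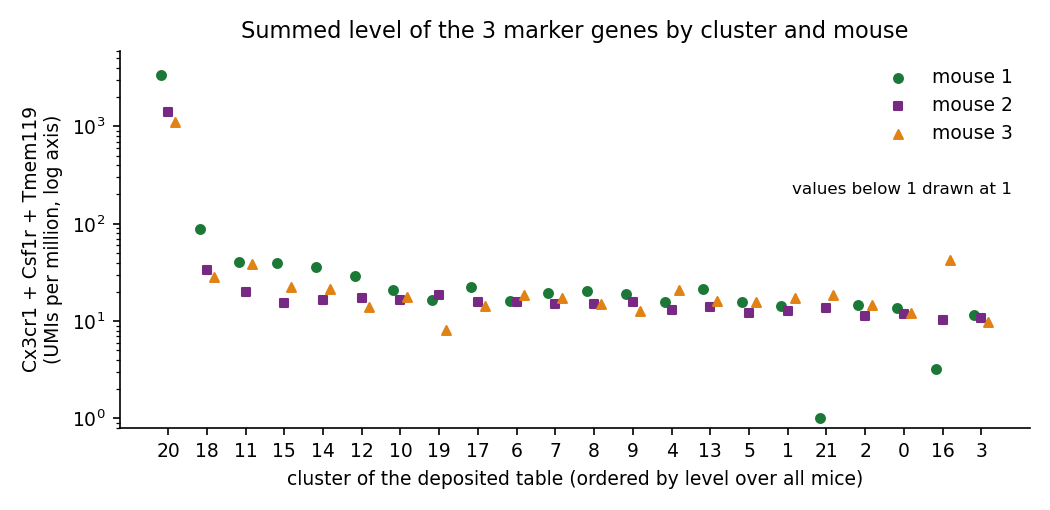
Summed level of Cx3cr1, Csf1r and Tmem119 (CPM, log axis) in each of the 22 clusters, 1 point per mouse. Cluster 20 lies at 1101 to 3412 CPM, and the value of cluster 18 over all mice is 40.8.

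Cluster 20 held 19 of 5845 nuclei in mouse 1, a share of 0.325% (exact 95% binomial interval 0.196 to 0.507, here and below for counting error only). It held 103 of 21105 in mouse 2, 0.488% (0.399 to 0.592), and 24 of 4753 in mouse 3, 0.505% (0.324 to 0.750). The mean was 0.439% ± 0.0993 (SD, n = 3 mice). The nuclei were poor in RNA. Their median was 3405 UMIs from 1682 genes, the second lowest of the 22 clusters after cluster 21 at 2240 UMIs, and by mouse the median was 2559, 3510 and 3329 UMIs against 7940, 8420 and 10568 over all nuclei. The study kept barcodes with at least 1000 genes, and 13 of the 146 nuclei, 8.90%, had fewer than 1200 genes, against 1.54% of all retained nuclei. Malat1, a nuclear RNA, took 3.10%, 6.93% and 7.75% of the UMIs of the cluster against 7.64%, 9.37% and 9.82% over all nuclei. Between 17 and 90 called barcodes were shared by any pair of mice, none of them a nucleus of cluster 20. In total 61554, 562690 and 200652 UMIs stood behind the levels in mice 1, 2 and 3, so mouse 2 was the most precisely measured.

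The name was set against a microglial core list of 12 genes, 3 of which had chosen the cluster. Without those, all 9 other genes (among them P2ry12, C1qa, C1qb, C1qc, Siglech, Selplg, Ctss and Trem2) were highest in cluster 20, with a summed mean of 8136 CPM against 93.1 in the next cluster. These genes too took part in the clustering, so this is a description. C1qb was seen in 93.2% of the nuclei, C1qc in 91.1% and Siglech in 67.1%. In cluster 9, which carried astrocyte genes and had a median of 5211 UMIs per nucleus, these shares were 2.99%, 1.14% and 0.264% despite the greater depth. Cx3cr1 and P2ry12 stood on a wider background. They were found in 78.1% and 79.5% of nuclei of cluster 20, but also in 7.39% and 14.6% of cluster 9 and in 10.3% and 15.1% of all nuclei outside cluster 20. The cluster was not pure, however. Of its 146 nuclei, 24 carried at least 4 border macrophage genes and 4 carried fewer than 3 core genes, as described further on.

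Genes that set the cluster apart were defined by a rule without a test. A gene counted as leading where it had at least 20 UMIs in the cluster and its level in every mouse lay above every library (of at least 10 nuclei) of every other cluster. Of 7499 genes with 20 UMIs, 483 were leading, which is 6.44%. The median log2 ratio of cluster 20 to the highest other cluster, with 5 CPM added to both, was -0.68 over all these genes. The count moved with the libraries used. Leaving out mouse 3 raised it to 779, and leaving out 37 unusually deep nuclei raised it to 738.

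The 20 leading genes with the largest ratio held the 3 genes of C1q, which lie next to each other on chromosome 4. By ratio C1qb was number 1, C1qc number 2 and C1qa number 6. C1qb (4:136880129-136886187, minus strand, GRCm38) had 2258, 1068 and 678 CPM in mice 1, 2 and 3, a mean of 1335 ± 823 (SD, n = 3), against 7.12 in the highest other cluster. C1qc (4:136889804-136893065) had 2209, 974 and 887 CPM against 8.57. C1qa (4:136895917-136898803) had 2031, 1049 and 797 CPM against 12.8. Each C1q gene was thus far above all other clusters in every mouse.

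Receptors and surface proteins formed the second group. Csf1r, the receptor of the growth factors Csf1 and Il34, had 1413, 588 and 503 CPM against 9.32 in the highest other cluster. Siglech, a sialic acid binding lectin of microglia, had 666, 414 and 314 against 3.39. Trem2, a lipid receptor, had 699, 348 and 150 against 3.39. Selplg, a selectin ligand, and Fcrls, an Fc receptor-like protein typical of mouse microglia, completed this group, and no library of another cluster reached them.

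Signalling genes were the third group. Inpp5d, a lipid phosphatase that restrains immune receptor signals, had 1413, 912 and 528 CPM against 9.37. Arhgap45, a GTPase activating protein of blood cells, had 650, 331 and 374 against 0.781. Ptprc, the phosphatase CD45 that marks cells of blood origin, had 536, 315 and 359 against 1.56. Myo1f, an unconventional myosin of immune cells, and Ikzf1, a transcription factor of the lymphoid and myeloid lineages with 601, 430 and 394 CPM against 1.38, followed the same pattern.

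Genes of other kinds, some of them lysosomal, made up the rest. Ctss, a protease that processes antigens, had 1056, 675 and 478 CPM against 4.86 in the highest other cluster. Ly86, the MD-1 protein that pairs with the receptor Cd180, had 2404, 784 and 698 against 13.2. Laptm5, a lysosomal membrane protein of blood cells, had 812, 247 and 199 against 1.69. Lyz2, lysozyme, had the largest ratio between mice among the 20, with 1072, 181 and 105 CPM. Mir142hg, the host transcript of a miRNA of blood cells, Mrc1, the mannose receptor, and F13a1, a clotting factor subunit made by macrophages, were the remaining 3 of the 20.

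**Figure D2:**
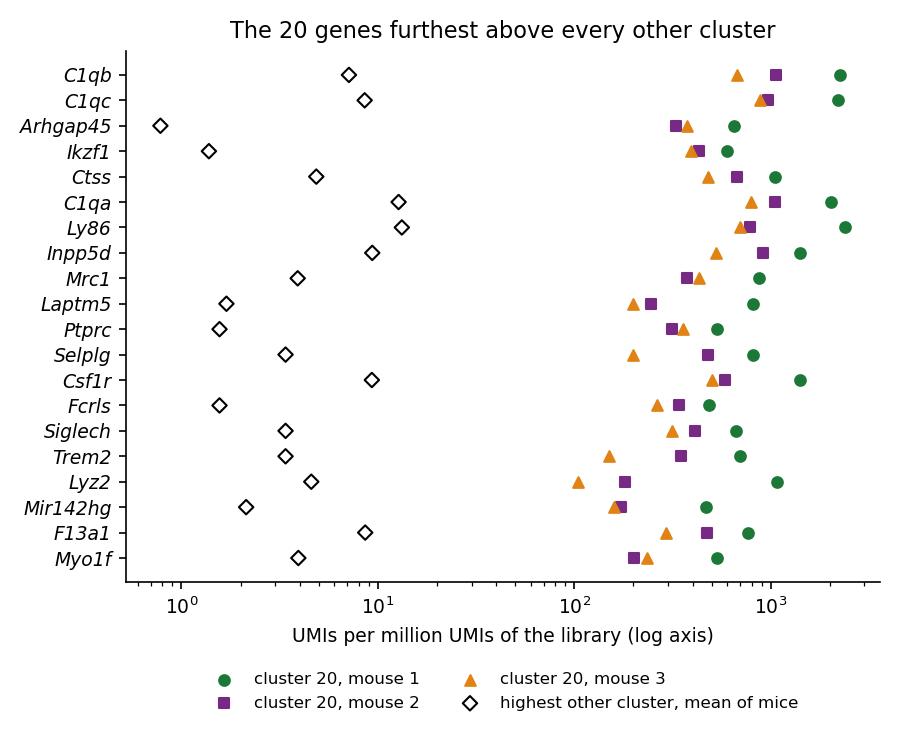
Levels (CPM, log axis) of the 20 leading genes with the largest ratio, with filled points for the 3 mice in cluster 20 and open diamonds for the highest mean of another cluster. Every filled point lies above 100 CPM and every diamond below 14.

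In all 20 genes mouse 1 was the highest, and in 16 mouse 3 was the lowest. The median ratio of mouse 1 to mouse 3 was 2.57. This order moved with the deep nuclei. Without the 37 nuclei that held at least 2 times the median UMI number of their mouse, mouse 1 was highest in 14 genes, mouse 3 lowest in 4, and the median ratio of mouse 1 to mouse 3 was 1.13. C1qb then stood at 2727, 1790 and 2021 CPM. All 20 genes were still leading without the deep nuclei, while Mrc1 and F13a1 were no longer leading once the 24 border-macrophage-like nuclei were left out. Over all leading genes, 413 were leading without those 24 nuclei, 388 of them among the 483, so 95 were lost. The genes just outside the rule were Ccl4, Ccl7, F630028O10Rik, Ccl3 and Ms4a4a, each of which had no UMI in 1 of the mice.

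Promoters were examined because these genes were high in the same cluster and because Spi1, the gene of the transcription factor PU.1 that myeloid cells require, was itself leading (244, 171 and 105 CPM against 1.56 in the highest other cluster). The letters GAGGAAGT, a core sequence that PU.1 is known to bind, were searched on both strands from 250 bases before to 50 bases after each gene's start (RefSeq, GRCm38.p6). Of the leading genes, 374 had a promoter in the table and 39 of them, 10.4%, held the letters, against 997 of 27025 genes, 3.69%, overall. Leading genes were drawn from the 7499 genes with 20 UMIs in the cluster, for which the share was not computed. The 2 shares are therefore of unlike sets of genes. A match is a run of letters and not a shown binding site, and whether PU.1 acts on these genes was not tested. Among the 20 genes above, 16 had a promoter and 4 held the letters, C1qc, Ctss, F13a1 and Inpp5d. Their promoters are shown on the strand of the gene with the match in capitals, which reads ACTTCCTC where it lies on the opposite strand.
C1qc (4:136892865-136893164, minus strand): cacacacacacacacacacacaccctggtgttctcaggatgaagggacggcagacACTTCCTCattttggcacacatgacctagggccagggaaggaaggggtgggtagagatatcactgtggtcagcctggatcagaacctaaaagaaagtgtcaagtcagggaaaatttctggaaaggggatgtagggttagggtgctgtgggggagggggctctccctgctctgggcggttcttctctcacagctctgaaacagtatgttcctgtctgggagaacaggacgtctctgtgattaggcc
Ctss (3:95526536-95526835, plus strand): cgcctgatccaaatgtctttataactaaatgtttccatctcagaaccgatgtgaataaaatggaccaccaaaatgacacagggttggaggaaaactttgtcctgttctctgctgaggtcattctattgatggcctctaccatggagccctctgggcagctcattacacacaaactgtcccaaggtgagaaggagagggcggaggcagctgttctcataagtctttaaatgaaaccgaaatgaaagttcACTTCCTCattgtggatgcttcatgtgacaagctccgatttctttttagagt
F13a1 (13:37049164-37049463, minus strand): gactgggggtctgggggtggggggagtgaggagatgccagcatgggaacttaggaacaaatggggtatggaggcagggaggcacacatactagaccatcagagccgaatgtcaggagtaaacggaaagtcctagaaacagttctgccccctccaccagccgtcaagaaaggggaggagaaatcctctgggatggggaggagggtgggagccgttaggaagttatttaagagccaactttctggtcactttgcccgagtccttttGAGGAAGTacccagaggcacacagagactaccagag
Inpp5d (1:87620062-87620361, plus strand): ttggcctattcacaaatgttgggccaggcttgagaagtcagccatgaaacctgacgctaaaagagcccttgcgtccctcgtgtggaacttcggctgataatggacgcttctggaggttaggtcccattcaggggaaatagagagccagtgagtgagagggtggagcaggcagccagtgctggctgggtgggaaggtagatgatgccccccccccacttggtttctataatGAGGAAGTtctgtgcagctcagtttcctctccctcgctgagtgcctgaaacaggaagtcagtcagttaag
The match began 195 bases before the RefSeq start in C1qc, 20 before it in Inpp5d, 2 before it in Ctss and at base 15 after it in F13a1.

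Gene lists gave the roles of the leading genes. Of the border macrophage list itself, 9 of 13 genes with 20 UMIs were leading, so the counts below are those of the whole mixed cluster and not of microglia alone. They are to be read beside the 6.44% of all genes and the median ratio of -0.68. The lists were written with earlier results of these data known, and members with fewer than 20 UMIs in the cluster are not counted. The counts are therefore a description and no independent support for the name of the cluster. Of the other homeostatic microglial genes, 14 of 17 with 20 UMIs were leading and the median log2 ratio was 3.53. Gpr34, a lysophospholipid receptor, had 536, 286 and 150 CPM, and Tyrobp, the adaptor of Trem2, had 341, 190 and 150. The 3 that were not leading were shared with other cells. Sall1, which keeps microglia in their resting identity, had 422, 164 and 79.7 CPM against 80.4 in cluster 3, and Sall3 was higher in cluster 6. Adgrg1 was higher in cluster 11, which carried olfactory ensheathing genes.

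Of the transcription factors, 9 of 19 were leading, with a median log2 ratio of 1.07. Runx1, an organiser of blood cell fates, had 1088, 403 and 439 CPM against 58.9. Mef2c was high but not particular to the cluster, with 1998, 1290 and 1067 CPM in cluster 20 against a mean of 1613 in cluster 3. Irf8, Itgam and Adora3, which usually mark microglia, had no UMI in any called barcode of any cluster, so their absence says nothing about this cluster.

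Of the signalling genes of myeloid cells, 23 of 26 were leading, with a median log2 ratio of 3.36. Fyb, an adaptor protein, had 601, 483 and 588 CPM against 27.4, and Dock8, a guanine exchange factor for motility, had 634, 457 and 419 against 22.3. Receptors for nucleotides followed with 7 of 8. P2ry12 had 1121, 627 and 359 CPM against 36.0, P2ry6, which senses UDP and triggers engulfment, had 179, 213 and 150 against 9.37, and Entpd1, which degrades ATP, had 796, 307 and 369 against 138. The exception was P2ry14, which ranked 18th of the 22 clusters. Its highest level was in cluster 5.

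Pattern recognition and Fc receptors had 10 of 13 leading. Tlr7, which senses RNA in endosomes, had 309, 117 and 125 CPM against 0.401. Fcer1g, the shared Fc receptor chain, had 536, 256 and 194 against 9.52. Tlr3, a sensor of double-stranded RNA, was instead highest in cluster 11. Of 7 complement genes with 20 UMIs, 5 were leading, the C1q genes and the anaphylatoxin receptors C3ar1 (65.0, 58.6 and 44.9 CPM) and C5ar1. C3 itself had 2 UMIs in the cluster.

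For phagocytosis and the lysosome the count was 13 of 21. Cd68, a lysosomal membrane protein of macrophages, had 325, 112 and 115 CPM against 4.28. Mertk, a receptor for dying cells, had 1771, 905 and 444 CPM but was not leading, since cluster 9 reached a mean of 517. Its relative Axl had 17.9 ± 6.40 CPM (SD, n = 3) and was highest in cluster 9 at 42.0. Of integrins and genes of the TGF-beta pathway, which maintains microglial identity, 7 of 16 were leading. Tgfbr1 had the steadiest level among the receptors, 975, 1015 and 827 CPM against 103.

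Among lists that stand for activated states, disease-associated microglial genes had 4 of 14 (Trem2, Tyrobp, Ctsb and Cd52). Spp1 had 22 UMIs, Gpnmb 4, Cst7 2 and Itgax 1 in the whole cluster. Apoe, the lipid carrier, had 5686, 3199 and 2901 CPM in cluster 20 but was higher in cluster 11, at 22993, and in cluster 9, at 8787. Interferon response genes had 2 of 6 leading, antigen presentation genes 2 of 11 (Cd74 and Cd86), and cytokines and chemokines 4 of 10. Il1b had 1 UMI and Tnf 4. None of 12 immediate early and heat shock genes with 20 UMIs was leading and their median log2 ratio was -1.16, below that of all genes. Proliferation genes had no member with 20 UMIs, and neither had monocyte and granulocyte genes, of which Ccr2 had 18 UMIs and 9 of 11 had none.

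Of the receptors paired with listed ligands, 8 of 9 were leading, 2 of which (Cx3cr1 and Csf1r) had chosen the cluster, and of the ligands 2 of 7. Cx3cr1 had 913 ± 647 CPM in cluster 20 (SD, n = 3), while its ligand Cx3cl1 was highest in cluster 0 at 170 ± 27.9 and was lower in cluster 20, at 45.6. Csf1r had 835 ± 503 CPM. Its ligand Il34 was highest in cluster 18, which carried endothelial and mural genes, at 222 ± 58.5, and Csf1 in cluster 16, which carried oligodendrocyte genes, at 85.4 ± 26.9. Cd200r1, a receptor that restrains myeloid cells, had 50.7 ± 18.7 CPM, and Cd200 was lowest of all clusters in cluster 20, at 12.3. Tgfb1 (108 ± 61.1) and Pros1, a ligand of Mertk (173 ± 90.8), were the 2 ligands that cluster 20 itself had at the highest level. These are levels of RNA in nuclei and measure neither protein nor contact between cells.

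Within the cluster, a fixed list of 14 border macrophage genes split the nuclei. Of the 146 nuclei, 58 had none of the 14 genes, 50 had 1, 12 had 2 and 2 had 3. Only 1 had 4, and the other 23 had 5 to 13. The line was drawn at 4 genes after these counts were seen, and the nuclei from 4 upwards are called border-macrophage-like. They held at least 27 UMIs of the list, except for the nucleus with 4 genes, which held 11, and no nucleus below the line held more than 10. Their number was 2 of 19, 18 of 103 and 4 of 24 in mice 1, 2 and 3, which is 10.5% (exact 95% interval 1.30 to 33.1), 17.48% (10.7 to 26.2) and 16.7% (4.74 to 37.4), a mean of 14.9% ± 3.80 (SD, n = 3). Their median depth of 3259 UMIs was close to the 3490 of the 118 other microglia-like nuclei. Outside the cluster, 4 retained nuclei had 4 or more of these genes, 2 of them in cluster 18, as did 3 removed barcodes.

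**Figure D3:**
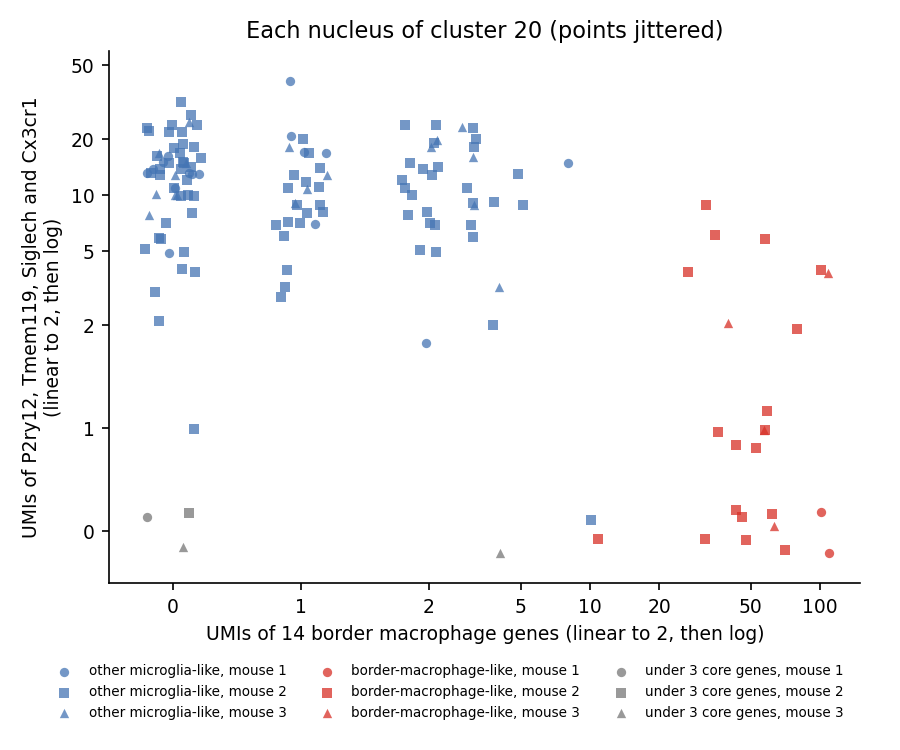
Each nucleus of cluster 20 by its UMIs of 14 border macrophage genes and of 4 microglial genes (P2ry12, Tmem119, Siglech and Cx3cr1), both axes linear up to 2 and logarithmic above, points jittered. The 24 border-macrophage-like nuclei lie at 11 to 109 border UMIs and the 118 other microglia-like nuclei at 0 to 10.

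The genes of the list chose these nuclei, so their levels are a description. Mrc1 had 342 UMIs in the 24 nuclei and 6 in the 118 others, and 97.2% of its UMIs in cluster 20 were in the 24. Cd163, a haemoglobin scavenger receptor, had 136 UMIs against 0, and F13a1 had 361 against 13. For genes outside the list, levels were compared per mouse without a test, counting a gene where the 3 libraries of 1 kind of nuclei all lay above the 3 of the other. Of 10083 genes with at least 10 UMIs, 330 were higher in border-macrophage-like nuclei, 3.27%, of which 12 belong to the list, and 1437 were higher in the other nuclei, 14.3%. The first count was 1157, 664 and 698 without mouse 1, 2 and 3 in turn, and the second was 2805 without mouse 1 and 2428 without mouse 3, since with 2 mice fewer libraries have to be passed. Mouse 1 gave only 6820 UMIs of border-macrophage-like nuclei, where 1 UMI is 147 CPM. A gene could reach 10 UMIs through 1 kind of nuclei alone, and the other nuclei held 692870 UMIs against 121240. The 2 counts are therefore not to be compared with each other.

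Border-macrophage-like nuclei had more of several genes outside the list. Rbpj, the nuclear effector of Notch signals, had 6305, 1613 and 2931 CPM in mice 1, 2 and 3 against 305, 105 and 122 in the other nuclei. Vcam1, an adhesion molecule, had 733, 468 and 786 against 0, 4.35 and 5.52. Cp, the copper protein ceruloplasmin, had 1173, 587 and 858 against 0, 30.5 and 16.6. None of these ranges overlapped. Apoe, which was not particular to cluster 20 as a whole, was 31378, 8354 and 29454 CPM in border-macrophage-like nuclei and 2550, 2086 and 928 in the others. Apoe was thus higher in border-macrophage-like nuclei in each mouse. Lyz2 had 8798, 478 and 1001 CPM against 114, 118 and 38.7, and 48 of its 66 UMIs in mouse 1 lay in a single border-macrophage-like nucleus. Iigp1 and Ifi207, both induced by interferons, Mndal of the same family, and Cd38, an enzyme that consumes NAD, were higher as well.

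Several microglial identity genes ran the other way. Tmem119 had no UMI among the 121240 of border-macrophage-like nuclei and 400, 268 and 127 CPM in the others. A count of 0 allows up to 24.7 CPM over the group (3 counts), of whose UMIs 100432 came from mouse 2. Cx3cr1 had 0, 69.7 and 0 CPM against 1941, 716 and 536. Siglech had 0, 9.96 and 143 CPM (3 UMIs in all) against 780, 505 and 337. Plxdc2, a plexin domain protein, had 0, 69.7 and 0 CPM against 3026, 2169 and 1552, so that mouse 2 alone had any in border-macrophage-like nuclei, as for Cx3cr1. Tgfbr1 differed in the same direction, with 0, 119 and 214 CPM against 1142, 1217 and 900. Havcr2, an immune checkpoint receptor, Olfml3 and Golm1 had no UMI in border-macrophage-like nuclei and 137, 81 and 86 in the others.

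Other genes overlapped between the kinds of nuclei. C1qa had 5572, 787 and 3146 CPM in border-macrophage-like nuclei and 1656, 1113 and 641 in the others. Csf1r had 2346, 398 and 1215 against 1351, 634 and 464, higher in border-macrophage-like nuclei in mice 1 and 3 and lower in mouse 2. Runx1, Spi1, Mef2c and Fcrls overlapped too. Of the core list, 6 of 12 genes were higher in the other nuclei, none was higher in border-macrophage-like nuclei, and 6 overlapped. The summed level of the 12 genes overlapped too, with 21701, 3853 and 13941 CPM in border-macrophage-like nuclei, higher in mice 1 and 3, against 16369, 9311 and 5153 in the others. Of the phagocytosis and lysosome list, 10 of 26 were higher in border-macrophage-like nuclei, where all genes had 3.27%, and 4 were higher in the others, where all genes had 14.3%. Stab1 is counted among the 10 and was also on the list that chose these nuclei.

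**Figure D4:**
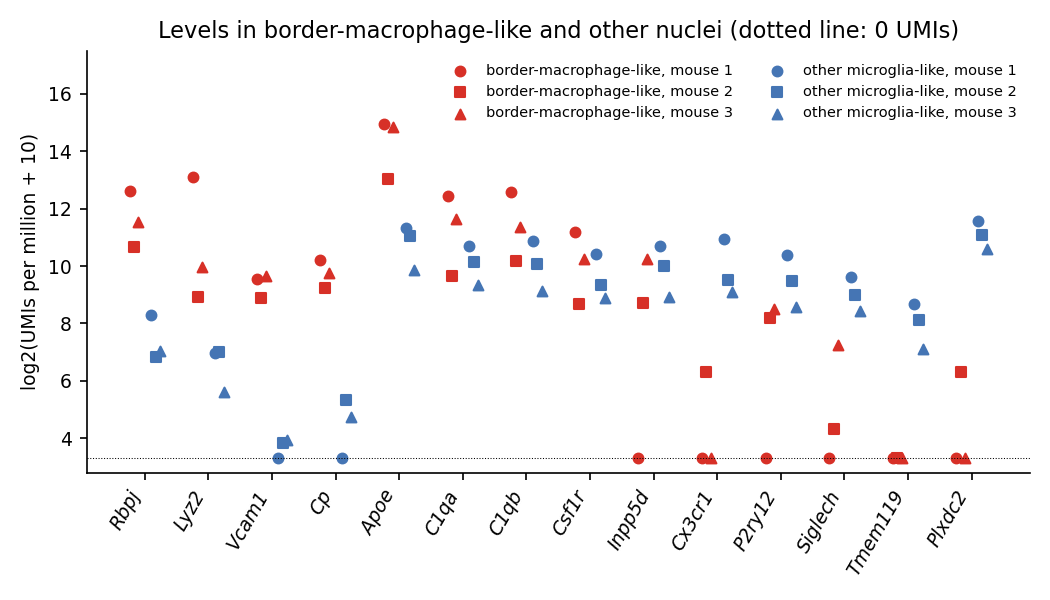
Levels of 14 genes, as log2(CPM + 10), in the border-macrophage-like and the other microglia-like nuclei of each mouse. Rbpj, Lyz2, Vcam1, Cp and Apoe do not overlap in favour of the first. Cx3cr1, P2ry12, Siglech, Tmem119 and Plxdc2 do not overlap in favour of the second, and C1qa, C1qb, Csf1r and Inpp5d overlap. P2ry12 was still found in some border-macrophage-like nuclei, with 7 UMIs in 1 of mouse 2.

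Lymphocyte-like nuclei were also in the cluster, 1 in each mouse. They had 17, 19 and 16 UMIs of the lymphocyte list in mice 1, 2 and 3 and 0, 1 and 0 core genes. The nucleus of mouse 1 had Il7r (7 UMIs), Cd3e (3), Cd3d (3), Trac (2) and Trbc2 (2), which encode the interleukin-7 receptor and parts of the T cell receptor complex. That of mouse 2 had Il7r (10), Themis (7) and Skap1 (2), and that of mouse 3 Themis (5), Skap1 (5), Trbc2 (5) and Cd3e (1). Each also had Ptprc, and none had a UMI of the border list. Il7r was counted among the leading genes of the cluster, and 17 of its 34 UMIs were in the first 2 of these nuclei.

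Antigen presentation through class II was held by few nuclei. Cd74, H2-Aa, H2-Ab1 and H2-Eb1 together had 237 UMIs in the cluster, and 218 of them, 92.0%, lay in the 7 nuclei with 3 or more of the 4 genes. The threshold was set after the values were seen. None of the 7 was in mouse 1, which had 0 UMIs of H2-Aa, H2-Ab1 and H2-Eb1. The richest, both in mouse 2, had 62 and 63 class II UMIs with 7 and 5 core genes. By that number of core genes they were counted among the 118 other microglia-like nuclei, but neither had a UMI of Cx3cr1, Tmem119 or Siglech. The first had 6 UMIs of F13a1. The second had 1 UMI each of P2ry12 and Fcrls and 0 border genes. Each had 3 UMIs of Ccr2, the receptor by which monocytes enter tissue. A nucleus of mouse 3 with 50 class II UMIs had only 2 core genes and the most Ccr2 (5 UMIs).

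Chemokine RNA was likewise concentrated. Of the 200 UMIs of Ccl2, Ccl3, Ccl4, Ccl7 and Ccl12, 159 lay in 3 nuclei, picked for these values. A border-macrophage-like nucleus of mouse 1 had 77 of them, with Ccl2 and Ccl7 at 20 UMIs each. Another nucleus of mouse 1 had 31 and 1 of mouse 2 had 51, of which 33 were Ccl4, and these had 2 and 0 border genes. The level of Ccl4 of 406 CPM in mouse 1 thus rests on 25 UMIs from 2 nuclei. Cell cycle genes were most abundant in 1 border-macrophage-like nucleus of mouse 2, with 21 UMIs of 3 genes, Mki67, Top2a and Cenpf. A microglia-like nucleus of mouse 1 came next, also with 3 genes of the list but with 6 UMIs, among them Mki67 (2) and Top2a (3).

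Neuronal RNA was present in the cluster at an uneven rate. The 15 genes of a neuron list, among them the synaptic gene Syt1 and the noncoding RNA Snhg11, made up 0.416%, 0.683% and 0.937% of the UMIs of cluster 20 in mice 1, 2 and 3 (mean 0.679% ± 0.261, SD, n = 3). By mouse the glial clusters 9, 11, 16 and 19 ranged from 0.134% to 0.611% and cluster 2, the highest neuronal one, from 1.45% to 1.61%. Lower than cluster 2 were cluster 7, with 0.817%, 0.905% and 0.763% in mice 1, 2 and 3, and cluster 10, with 0.866%, 0.961% and 0.866%. Cluster 20 lay above both in mouse 3 and below both in mice 1 and 2. The 37 deep nuclei, 2, 29 and 6 in the mice, held 24.3%, 55.8% and 72.1% of the cluster's UMIs and 80.5%, 80.02% and 96.3% of its neuronal UMIs. Their neuronal share was 1.38%, 0.979% and 1.25%, against 0.107%, 0.309% and 0.123% in the other nuclei of the same mice, so deep nuclei were higher in every mouse. Syt1 had 3065 CPM in deep and 490 in other nuclei, and Snhg11 had 3430 and 299.

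**Figure D5:**
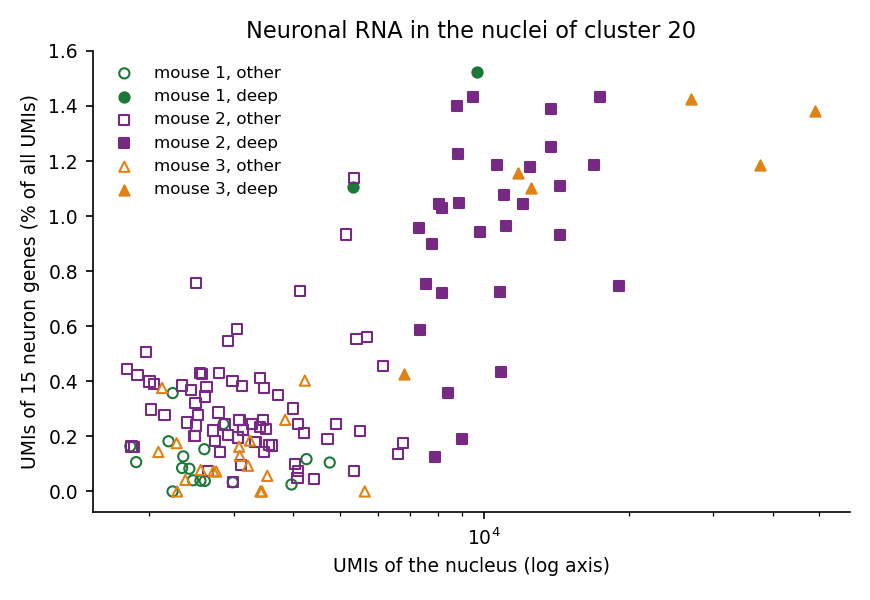
Percent of UMIs from 15 neuron genes against the number of UMIs (log axis) for each nucleus of cluster 20, filled where the nucleus had at least 2 times the median of its mouse. The filled points of mouse 3 hold 72.1% of the UMIs of the cluster in that mouse.

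The absolute amount of microglial RNA in deep nuclei was similar to that in the others. Their median number of core UMIs was 47, 38 and 54 in mice 1, 2 and 3, against 61, 46.5 and 39.5, although their total was larger, and C1qa had 1860 CPM in other nuclei and 469 in deep ones. Whether deep barcodes held more than 1 nucleus was not tested. The study gated out doublets at the sorter by scatter, and no doublet caller was run here. The 15 genes are a small part of neuronal RNA, since they made up 1.55% of the UMIs of cluster 2 itself (mean of 3 mice), so their share is not the share of neuronal RNA in cluster 20, which was not estimated. Of the 37 deep nuclei 5 were border-macrophage-like, against 24 of all 146.

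Barcodes that the study removed, which took no part in the clustering, were searched for RNA of the microglial core list. Border-macrophage-like nuclei carry core genes as well, so the list does not tell the 2 kinds apart. Of 44423 called barcodes, 513 had at least 3 of the 12 core genes, of which 142 were in cluster 20, 360 in other clusters and 11 among the removed. The removed made up 7.37%, 0.316% and 2.94% of such barcodes in mice 1, 2 and 3 (mean 3.54% ± 3.56, SD, n = 3), and 28%, 0.971% and 12% where only these and the nuclei of cluster 20 are counted. Of all barcodes, 24.3%, 29.2% and 30.9% were removed, so mouse 1 lay above or below that share depending on the barcodes counted. With at least 5 core genes the numbers were 138, 4 and 8 of 150, and 6 of the 8 were from mouse 1, where cluster 20 had 19 nuclei. The 11 barcodes had a median of 1558 UMIs and 798 genes, and the most had 947 genes, under the floor of 1000. The 11301 removed barcodes with no core gene had a median of 737 UMIs. Of all removed barcodes, 3 had at least 4 border macrophage genes, and whether these are among the 11 was not tested.

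UMIs of these 11 barcodes, summed per mouse, were compared with those of the removed barcodes with no core gene by edgeR's quasi-likelihood test with Benjamini-Hochberg adjustment, leaving out the core genes that chose them. Of 8387 genes tested, 25 were higher, 0.298%, and 302 were lower. Among the 25, 17 were also leading genes of cluster 20, of 189 leading genes tested. The largest differences were those of Cd74 (log2 fold change 6.19, SE 0.94, adjusted p = 1.5e-07), Ly86 (5.33), Zfhx3 (4.87), Tgfbr1 (3.83) and Zfp710 (3.82). Of the 20 genes above, 8 are core genes and were left out, and of the other 12 only Ly86 passed the filter on low counts. The count was 0 with the mouse as a block, with 1183 genes at an unadjusted p under 0.05, and 0 without mouse 1 or without mouse 3 (466 and 588 genes unadjusted). It was 76 without mouse 2, whose library was 1 barcode of 768 UMIs, and scaling by library size in place of TMM gave 153 higher and 0 lower. The comparison therefore depends on single libraries, on the scaling and on whether the mouse is a block. In sums without a test, out of 15490 and 9876705 UMIs, Ptprc had 10 UMIs in the 11 barcodes and 1 in the 11301. Ikzf1 had 8 and 5, and Inpp5d 12 and 18. The border list genes Mrc1 and F13a1 had 14 and 18, and 14 and 22. In the 11 barcodes each was at 904 CPM, against means of 562 and 511 in cluster 20.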

How the data were processed

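Single-nucleus RNA was counted in 3 OB libraries, 1 per mouse. The authors made the deposited UMI counts with Cell Ranger on GRCm38 (version 3.0.2 in the matrix headers) and removed barcodes with fewer than 1000 genes or over 5% mitochondrial UMIs. The deposited annotation gives the authors' cluster of each nucleus, with a percent of mitochondrial UMIs computed by the authors, after merging the mice in Seurat. It names no cell type.

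The members and the gene lists were chosen with earlier results of these data known. Counts were summed per mouse and cluster with Python 3.11.15 (numpy 2.4.6, pandas 2.3.3, scipy 1.17.1). The genes named are the 20 leading genes with the largest log2 ratio, members of lists that are high or define a role, and for the removed barcodes these 20 and the 5 called genes with the largest log2 fold change (adjusted p under 0.05, log2 fold change above 1). Limits for genes at 0 are 3 counts over the UMIs of the group. Removed barcodes were tested with edgeR 4.0.16 in R 4.3.3 (filterByExpr, TMM), with DESeq2 1.42.0 as an alternative, and the edgeR fit and the leading rule were tested on simulated data. Libraries compared there are paired by mouse, since both come from the same animal. Other alternatives were leaving out mice or nuclei, other minimums and other scalings. Positions of genes are from GENCODE M21, which matched 30934 of 31055 genes by identifier. Promoters were placed by RefSeq starts, which can differ from these. For F13a1, on the minus strand, the GENCODE gene begins at 13:37050244, outside the promoter shown. Doublets were not called. A few list members are not reported here by name.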

Additional observations from a re-analysis of the deposited data

Results flagged for a closer look

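RNA of the microglial core list appeared in data outside the clustering. Among the 12720 barcodes that the study removed, 8 had at least 5 of the 12 core genes, 6 in mouse 1, 0 in mouse 2 and 2 in mouse 3. In the retained nuclei outside cluster 20 there were 4. The threshold of 5 genes was chosen after the data were seen. Border-macrophage-like nuclei carry core genes too, and 3 removed barcodes had at least 4 border macrophage genes. Whether these are among the 8 was not tested.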

How the results depend on the processing

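Cluster 20 was chosen under each gene and mouse alone. Its mean share, 0.439%, fell to 0.243% among nuclei with at least 1500 genes, where its poorer nuclei drop out, and lay between 0.407% and 0.496% without 1 mouse. The 483 leading genes became 355 to 630 under the other minimums and scalings and without the 15 nuclei with the highest neuronal share. They numbered 410 to 779 without 1 mouse and 738 without the deep nuclei. The neuronal share, 0.679%, was 0.349% without those 15 nuclei and 0.203% as a median over nuclei, and 0.550% to 0.810% without 1 mouse. The removed percent of barcodes with core genes, 3.54%, was 8.55% at 4 genes, 10.8% at 5, 7.96% without the 3 genes of the cluster rule and 1.63% to 5.15% without 1 mouse. The border-macrophage-like share, 14.9%, lay between 13.6% and 17.1% without 1 mouse. Genes higher in these nuclei numbered 664 to 1157 and those higher in the others 2112 to 2805 without 1 mouse.

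The 25 genes higher in the removed barcodes were 0 with the mouse as a replicate block (the pairing), 0 to 76 without 1 mouse, 153 with library size scaling, 164 without a filter, 11 with at least 2 core genes and 150 with DESeq2. The cause was not tested. With at least 4 core genes mouse 2 had no such barcode, and the fit was not run. At 19 and 24 nuclei in mice 1 and 3, depth limits what can be said of single nuclei and of genes with few UMIs.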
